A study of Mus musculus with 6 samples.

Results

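The nuclear genes of the mitochondrial respiratory chain were examined in splenic myeloid-derived suppressor cells (MDSCs) of aged mice. Members were taken from the gene symbols, as every listed symbol that begins with Nduf, Sdh, Uqcr, Cox and a digit, or Atp5. This gave 81 of the 8191 genes in the deposited table, out of 106 protein-coding symbols of that form in the GENCODE M21 annotation, and the other 25 were not analysed here. By symbol, 38 members belong to complex I, 6 to complex II, 8 to complex III, 18 to complex IV, and 11 to complex V, and 13 of the 81 are assembly factors rather than subunits. MDSCs are immature myeloid cells that restrain T cells, and they carry CD11b and Gr1 on their surface. They came from the spleens of untreated aged BALB/c mice, 18 to 24 months old, of 3 genotypes: WT, Tnfr1-/-, and Tnfr2-/-, which lack TNF receptor 1 and TNF receptor 2 in every cell of the body. There were 2 samples of each genotype, from 2 independent experiments, and each sample pooled the cells of 5 mice. The data therefore compare pools, and the spread between the 2 samples of a genotype is the only measure of error. The comparisons ask how far the loss of either receptor goes with the expression of the respiratory chain genes, and whether the 2 knockouts differ from each other.

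The respiratory chain sits in the inner mitochondrial membrane. Complex I takes electrons from NADH and complex II takes them from succinate, complex III passes them to cytochrome c, and complex IV gives them to oxygen, while complex V, the ATP synthase, uses the resulting proton gradient to make ATP. Most subunits are encoded in the nucleus and are imported, and a few core subunits of complexes I, III, IV, and V come from the mitochondrial genome. Resting granulocytes are known for few mitochondria and a reliance on glycolysis, while tissue macrophages hold many.

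Expression was given as FPKM, fragments scaled to the length of the transcript and to the size of the library, so levels can be set side by side between genes. The number of reads behind a value is unknown. When a one-way analysis of variance over the 3 genotypes was recomputed, every listed gene passed at 0.05, the largest value being 0.04995. Each member is thus in the table because it differed between genotypes, and counts of members that differ are no independent support. The filter used these same values and favors genes with a small spread within a genotype. Adjusted p-values and standard errors given here, over the listed genes only, are therefore likely too small. The summed level of the listed genes was 344714 and 346870 FPKM in the WT samples and ranged from 133604 to 155248 FPKM over the knockout samples, and the median difference of all listed genes from WT was -0.74 in Tnfr2-/- and -0.83 in Tnfr1-/- on the log2(FPKM + 1) scale. WT values were written with up to 10 significant digits and knockout values with up to 6, and among genes under 0.1 FPKM the ratios of the 2 samples fell on ratios of whole reads for 74.5% in WT, 7.28% in Tnfr1-/-, and 8.52% in Tnfr2-/-. This difference in how the values were made follows the genotype, so it and the genotype cannot be told apart in any comparison with WT. Tnfrsf1b, the gene of TNF receptor 2, was lowest in Tnfr2-/-, at 11.3 and 14.3 FPKM, against 47.8 and 69.6 FPKM in Tnfr1-/- and 112 and 115 FPKM in WT.

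The markers of other cells differed between the genotypes as well. All 12 macrophage markers were listed, and together they reached 3744 to 3924 FPKM in WT but 305 to 349 FPKM in Tnfr1-/- and 382 to 426 FPKM in Tnfr2-/-. Of the 14 markers of the granulocytic and monocytic cells themselves, 3 were listed (Ly6c1, Csf3r, and Ccr2), with a sum of 23.0 to 25.1 FPKM for WT, 470 to 655 FPKM for Tnfr1-/-, and 693 to 744 FPKM for Tnfr2-/-. Dendritic cell markers (6 of 8 listed) ran, in the order WT, Tnfr1-/-, and Tnfr2-/-, from 249 to 256, from 32.6 to 34.1, and from 33.9 to 35.5 FPKM, B cell markers (4 of 6) from 46.5 to 46.9, from 318 to 382, and from 167 to 299 FPKM, T and NK cell markers (3 of 8) from 32.7 to 36.4, from 37.6 to 43.0, and from 20.1 to 22.9 FPKM, and the only listed platelet marker of 4, Pf4, from 104 to 118, from 4.14 to 4.24, and from 3.12 to 4.30 FPKM. The sums for dendritic cells and for T and NK cells join genes that moved in opposite directions. On the log2(FPKM + 1) scale 1 of the 6 dendritic cell markers was higher and 5 were lower in each knockout. Of the 3 T and NK cell markers 2 were higher and 1 was lower in each knockout. The lower one, Cd4, was at 24.2 and 25.7 FPKM in WT and at most 4.89 FPKM in the knockouts. The higher ones were Cd3d and Cd3g, the latter with overlap between Tnfr2-/- and WT. None of the 7 erythroid markers was listed, and no listed marker was at 0 in any sample. The WT samples thus held high macrophage marker levels and low levels of these 3 genes, in a set labelled as MDSCs. The other 11 genes of that list, among them Itgam (CD11b) and Ly6g, were not analysed here, so the label could not be checked on the surface markers of the sort. The part of this difference in the results on the respiratory chain was not tested, and in bulk samples fewer cells of a type and less RNA per cell cannot be told apart.

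The members were abundant genes, and their level was highest in WT, lower in Tnfr2-/-, and lowest in Tnfr1-/- in the FPKM as deposited. Their median level was 63.1 and 64.4 FPKM in the WT samples, 23.6 and 20.6 FPKM in Tnfr1-/-, and 25.8 and 31.7 FPKM in Tnfr2-/-. A mean of at least 100 FPKM was reached by 28 members in WT, by 11 in Tnfr2-/-, and by 6 in Tnfr1-/-. The 6 samples did not overlap between genotypes, in the order WT over Tnfr2-/- over Tnfr1-/-, for 56 of the 81 members. This held for 28.4% of all listed genes. The group means had that order for 77 of the 81 members and for 4411 of the 8191 listed genes. The lowest of the 6 samples was the second Tnfr1-/- sample for 63 members.

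**Figure D1:**
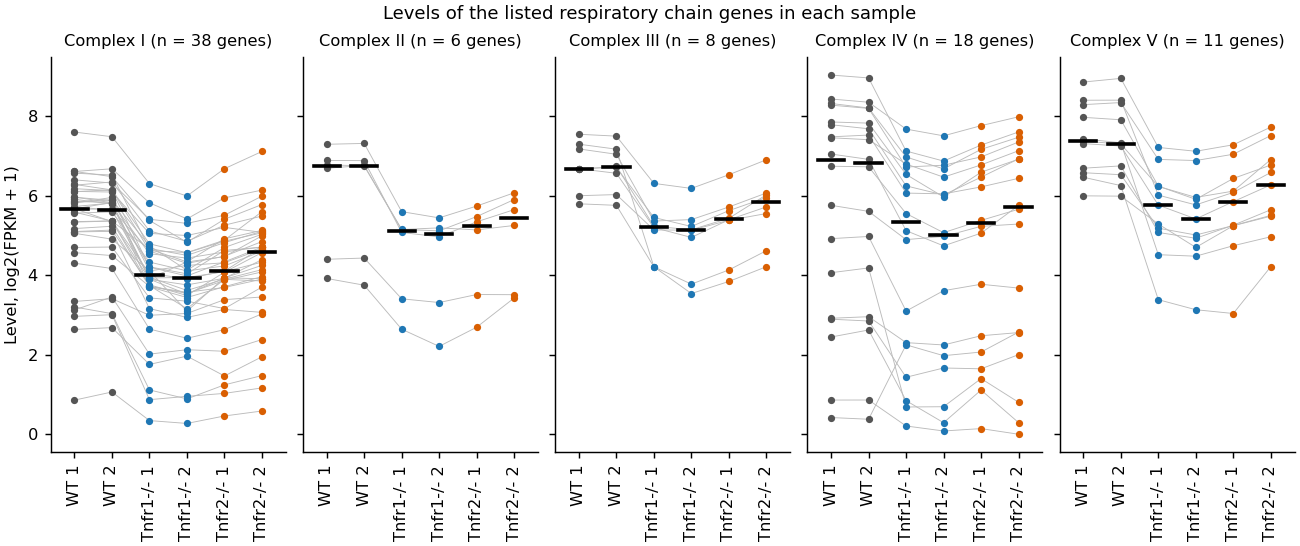
Level of each listed respiratory chain gene, as log2(FPKM + 1) on the y axis, in the 6 samples on the x axis, in 1 panel per complex. Each point is a gene, gray lines join the values of 1 gene, and black bars are the median of the panel's genes in that sample. In complex I the median level was 50.1 and 49.3 FPKM in WT and between 14.2 and 23.0 FPKM in the 4 knockout samples.

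The listed genes all passed the filter, so a part of their FPKM is not a part of the whole sample. Of the listed FPKM of a sample, the members held from 1.88% to 2.63%. Their summed level was 8235 and 8033 FPKM in WT, 2906 and 2518 FPKM in Tnfr1-/-, and 3178 and 4079 FPKM in Tnfr2-/-, which is 2.39% and 2.32% of the FPKM of all listed genes in WT, 2.16% and 1.88% in Tnfr1-/-, and 2.13% and 2.63% in Tnfr2-/-. The mean share was 2.35% ± 0.0517 (SD, n = 2) in WT, 2.02% ± 0.197 in Tnfr1-/-, and 2.38% ± 0.350 in Tnfr2-/-. The Tnfr2-/- samples lay on both sides of WT, and both Tnfr1-/- samples lay under it. No test is given for shares, since the smallest p that exact permutation of 2 against 2 samples allows is 0.333, two-sided.

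**Figure D2:**
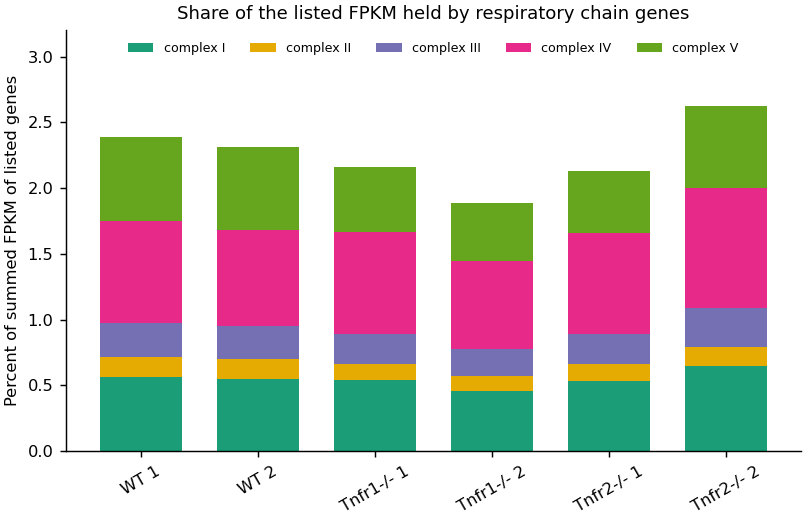
Summed FPKM of the respiratory chain genes of each complex as a percent of the summed FPKM of all listed genes, on the y axis, stacked for each of the 6 samples on the x axis. The whole bar runs from 1.88% in the second Tnfr1-/- sample to 2.63% in the second Tnfr2-/- sample.

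The share was not placed alike in every complex. Complex V, the ATP synthase, held 0.641% and 0.635% of the listed FPKM in WT, 0.500% and 0.439% in Tnfr1-/-, and 0.475% and 0.630% in Tnfr2-/-, so all 4 knockout samples lay under both WT samples. Complex II held 0.151% in both WT samples, 0.122% and 0.116% in Tnfr1-/-, and 0.125% and 0.149% in Tnfr2-/-, again without overlap with WT. The shares of complexes I, III, and IV overlapped between WT and Tnfr2-/-. In Tnfr1-/- complex I held 0.539% and 0.457%, under the 0.563% and 0.546% of WT. Complex III held 0.226% and 0.203% in Tnfr1-/-, under the 0.264% and 0.252% of WT. Complex IV, cytochrome c oxidase, held 0.771% and 0.731% in WT, 0.776% and 0.670% in Tnfr1-/-, and 0.765% and 0.913% in Tnfr2-/-.

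Compared with WT, most members were lower in both knockouts in the FPKM as deposited, and fewer were called lower when the shift of all genes was taken out. A gene is called here when limma's test on log2(FPKM + 1), in 1 model of all 6 samples, gave a Benjamini-Hochberg adjusted p under 0.05 over all listed genes and a fold change over 1.5. In Tnfr2-/- against WT, 71 members fell, where 57.1% of all listed genes did, and 1 member, Cox16, rose, where 13.6% of all listed genes did. The median difference of the members was -1.12, against -0.74 for all listed genes. The 2 Tnfr2-/- samples lay under both WT samples for 79 members and over them for 1. Of all listed genes, 77.2% lay under and 21.1% over WT in this way. In Tnfr1-/- against WT, 79 members fell, where 60.7% of all listed genes did, Cox16 rose, where 14.1% did, and Ndufaf3 was not called. The median difference there was -1.49, against -0.83 for all listed genes. The samples lay under WT without overlap for 80 members and over it for 1. Of all listed genes, 77.3% lay under and 21.7% over WT in this way. Both comparisons use the same WT samples, so their results are not independent of each other.

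Another scaling changed this picture. In median-ratio scaling, each sample is divided by the median ratio of its genes to their mean over samples, which brings the median difference of all listed genes close to 0 (-0.03 in both comparisons with WT). It gave 13 members lower in Tnfr2-/-, where 21% of all listed genes were, 2 higher, Cox16 and Ndufaf3, where 21.8% were, and a median of -0.20. In Tnfr1-/- it gave 30 members lower, where 22.1% of all listed genes were, the same 2 members higher, where 23.3% were, and a median of -0.41. Quantile normalization gave 19 members lower (22.6% of all listed genes) and 3 higher (20.6%) in Tnfr2-/-, and 33 lower (25.1%) and 1 higher (21.2%) in Tnfr1-/-. With median-ratio scaling 26 members had a higher and 55 a lower mean in Tnfr2-/- than in WT, against 2 and 79 as deposited. The samples did not overlap for 43 members that were lower in Tnfr2-/-, where 45.1% of all listed genes were lower in this way. In Tnfr1-/- this count was 63 members, where it was 47% of all listed genes. For higher levels without overlap the counts were 14 members in Tnfr2-/-, where 40.1% of all listed genes had them, and 10 members in Tnfr1-/-, where 42.3% had them.

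**Figure D3:**
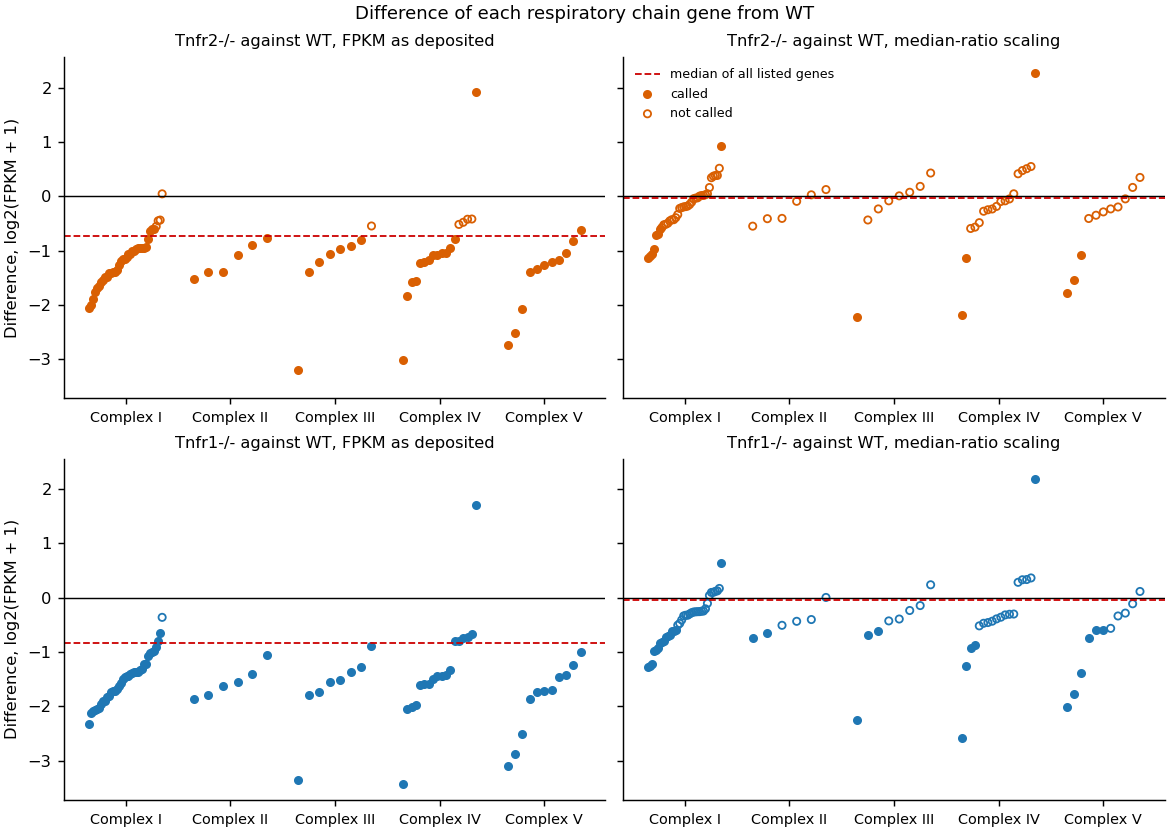
Difference of each respiratory chain gene from WT on the log2(FPKM + 1) scale, on the y axis, by complex on the x axis, for Tnfr2-/- in the top row and Tnfr1-/- in the bottom row, with FPKM as deposited on the left and median-ratio scaling on the right. Filled points are genes called in that comparison, open points are not called, and the dashed red line is the median of all listed genes. As deposited, 71 and 79 genes are called lower, and with median-ratio scaling 13 and 30 are.

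The 13 members lower in both knockouts with median-ratio scaling were also lower in both with quantile normalization. They are Uqcr10 of complex III, Cox6b2 and Cox7a1 of complex IV, Atp5g1, Atp5g3, and Atp5h of complex V, and 7 members of complex I, namely Ndufa13, Ndufb6, Ndufb10, Ndufv2, Ndufv3, Ndufaf2, and Ndufaf5. Among all listed genes 1546, or 18.9%, were lower in both knockouts in the same way, so the share of members was near that of all genes. These 13 were picked out after their values were seen. When each sample was left out in turn, between 10 and 12 of the 13 were still called in both comparisons. Cox7a1 was lost without either WT sample, either Tnfr1-/- sample, or the second Tnfr2-/- sample, Atp5g1 without either WT sample, Ndufb10 without the first WT or the first Tnfr2-/- sample, and Ndufb6 without the second WT sample.

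In complex I, 34 of 38 members fell in Tnfr2-/- and 37 in Tnfr1-/- as deposited, where 57.1% and 60.7% of all listed genes fell. The median differences were -1.14 and -1.45. With median-ratio scaling 7 and 15 fell, where 21% and 22.1% of all listed genes did, and Ndufaf3 rose in both. The 7 core subunits, which carry the flavin and the iron-sulfur clusters that pass electrons on, all fell in both knockouts as deposited, by between 0.95 and 1.66 on the log2 scale in Tnfr2-/- and by between 1.21 and 1.90 in Tnfr1-/-. Ndufv2, an iron-sulfur subunit of the NADH-binding module, stood at 51.8 and 48.8 FPKM in WT, 14.4 and 11.3 FPKM in Tnfr1-/-, and 13.9 and 16.7 FPKM in Tnfr2-/-. Its WT samples were far over all knockout samples, which overlapped with each other, and its difference from WT was -1.66 ± 0.15 (SE) in Tnfr2-/- and -1.90 ± 0.15 in Tnfr1-/- as deposited, and -0.70 and -0.80 with median-ratio scaling. Ndufs1, the largest core subunit, stood at 35.1 and 36.6 FPKM in WT, 12.1 and 10.9 FPKM in Tnfr1-/-, and 11.9 and 14.0 FPKM in Tnfr2-/-. Ndufs7 and Ndufs8, which hold the last clusters before ubiquinone, had the median-ratio differences nearest to 0 among the core subunits in Tnfr2-/-. Ndufs8 was 0.95 lower in Tnfr2-/- as deposited and 0.01 higher with median-ratio scaling, and Ndufs7 was 1.00 lower and 0.03 lower, with -0.27 and -0.10 in Tnfr1-/- after median-ratio scaling.

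Among the accessory subunits of complex I, Ndufa13 (also GRIM-19) fell most. It stood at 61.7 and 55.7 FPKM in WT, 12.1 and 9.85 FPKM in Tnfr1-/-, and 12.1 and 14.6 FPKM in Tnfr2-/-. The mean in WT was 4.39 times that in Tnfr2-/- and 5.35 times that in Tnfr1-/-, and the difference of -2.06 ± 0.14 in Tnfr2-/- had an adjusted p of 0.000168 in limma, with -1.10 after median-ratio scaling. Of its 50-base windows 28.5% also occur in another gene, most of them in Tssk6, which overlaps it on the opposite strand. Ndufa4, counted with complex I by its symbol and now known as a subunit of complex IV, was the most abundant gene of the Nduf group, at 194 and 178 FPKM in WT, 78.2 and 62.8 FPKM in Tnfr1-/-, and 102 and 138 FPKM in Tnfr2-/-. It was 0.65 lower in Tnfr2-/- than in WT as deposited and 0.34 higher with median-ratio scaling, and in Tnfr1-/- it was 1.39 and 0.26 lower. Its call in Tnfr2-/- was lost without either WT sample and without the first Tnfr2-/- sample, where the difference was -0.43. Ndufb3 and Ndufs4, 2 further accessory subunits, were not called in Tnfr2-/- as deposited, with differences of -0.45 and -0.56.

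Assembly factors build the complexes without staying in them, and their differences from WT ran from -1.89 to 1.92 in Tnfr2-/-. As deposited, 8 of the 13 fell and 1 rose in Tnfr2-/-, and 11 fell and 1 rose in Tnfr1-/-, with medians of -0.90 and -1.06. Of all listed genes, 57.1% and 60.7% fell and 13.6% and 14.1% rose. With median-ratio scaling 2 fell and 2 rose in each knockout, where 21% and 22.1% of all listed genes fell and 21.8% and 23.3% rose. Ndufaf5, a complex I assembly factor that modifies the core subunit Ndufs7, stood at 6.81 and 7.05 FPKM in WT, 0.828 and 0.936 FPKM in Tnfr1-/-, and 1.04 and 1.24 FPKM in Tnfr2-/-. It fell by 1.89 on the log2 scale in Tnfr2-/- as deposited and by 1.13 with median-ratio scaling. Ndufaf3, which acts at an early step of complex I assembly, kept nearer to its WT level than most members. It stood at 9.14 and 9.64 FPKM in WT, 6.96 and 7.22 FPKM in Tnfr1-/-, and 9.46 and 9.96 FPKM in Tnfr2-/-, so that its Tnfr2-/- and WT samples overlapped and its Tnfr1-/- samples lay under both. As deposited its difference was 0.04 in Tnfr2-/- and -0.36 in Tnfr1-/-, neither called, and with median-ratio scaling it was 0.93 and 0.65 higher and called in both, although quantile normalization called it in Tnfr2-/- only, at 0.76, and not in Tnfr1-/-, at 0.46. Ndufaf2 fell in both knockouts under each scaling, but 80.9% of its windows also occur in another gene, so its values are uncertain.

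Cox16, an assembly factor of complex IV, was the only member that rose as deposited. It stood at 0.338 and 0.299 FPKM in WT, 3.76 and 2.94 FPKM in Tnfr1-/-, and 3.19 and 4.94 FPKM in Tnfr2-/-, and every knockout sample was over both WT samples. The difference was 1.92 ± 0.19 in Tnfr2-/- (adjusted p = 0.000544 in limma) and 1.71 ± 0.19 in Tnfr1-/- (adjusted p = 0.000693), and it stayed positive with median-ratio scaling, at 2.28 and 2.18. The gene overlaps the protein-coding gene Gm20498 on the same strand, which shares 88.7% of its 50-base windows, so the reads of the 2 genes can hardly be separated and the value is uncertain. Only under a filter of a mean of at least 5 FPKM was it not tested.

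Complex II, succinate dehydrogenase, also works in the citric acid cycle. All 6 of its members were called lower in both knockouts as deposited, where 57.1% and 60.7% of all listed genes were. Their median differences were -1.23 in Tnfr2-/- and -1.59 in Tnfr1-/-. Sdha, the flavoprotein that oxidizes succinate, stood at 102 and 108 FPKM in WT, 34.5 and 35.6 FPKM in Tnfr1-/-, and 34.3 and 37.1 FPKM in Tnfr2-/-. The knockouts overlapped and both lay under WT, with differences of -1.53 ± 0.07 in Tnfr2-/- and -1.56 ± 0.07 in Tnfr1-/- as deposited, and of -0.55 and -0.43 with median-ratio scaling, which were under the fold threshold. The iron-sulfur subunit Sdhb and the membrane anchors Sdhc and Sdhd did not overlap between the knockouts. Sdhb, for example, was at 34.6 and 33.7 FPKM in Tnfr1-/- and at 43.5 and 58.9 FPKM in Tnfr2-/-, against 109 and 107 FPKM in WT. With median-ratio scaling no member of complex II was called in Tnfr2-/-, and Sdhc and Sdhd were called lower in Tnfr1-/-, at -0.74 and -0.65. Of all listed genes, 21% in Tnfr2-/- and 22.1% in Tnfr1-/- were called lower with that scaling. Sdhaf4, an assembly factor of Sdha, was 0.78 lower in Tnfr2-/- than in WT as deposited and 0.12 higher with median-ratio scaling. Its call in Tnfr2-/- was lost with a replicate block, with a pseudocount of 0.1, and without either WT sample, either Tnfr1-/- sample, or the first Tnfr2-/- sample, where the difference was -0.41.

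In complex III, ubiquinol-cytochrome c reductase, 1 small subunit stood apart from the rest. Uqcr10, a small subunit beside the Rieske protein, was at 156 and 143 FPKM in WT, 17.6 and 10.6 FPKM in Tnfr1-/-, and 13.4 and 17.6 FPKM in Tnfr2-/-. The WT samples were far over all others, and the mean in WT was 9.69 times that in Tnfr2-/- and 10.6 times that in Tnfr1-/-. Its difference was -3.21 ± 0.26 in Tnfr2-/- (adjusted p = 0.000269 in limma) and -3.36 ± 0.26 in Tnfr1-/- (adjusted p = 0.000206), with -2.23 and -2.25 after median-ratio scaling. Counted by level among the 81 members, it was in places 18 and 19 in the WT samples, 46 and 58 in Tnfr1-/-, and 60 and 57 in Tnfr2-/-. None of its 50-base windows occurs in another annotated gene.

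The other 7 subunits of complex III changed far less. Uqcrh, the hinge protein and the most abundant of them, was at 186 and 180 FPKM in WT, 78.5 and 71.8 FPKM in Tnfr1-/-, and 91.4 and 119 FPKM in Tnfr2-/-, and its difference in Tnfr2-/- was -0.81 as deposited and 0.18 with median-ratio scaling. Uqcrc2, a core protein, was at 63.1 and 64.4 FPKM in WT, 34.3 and 34.1 FPKM in Tnfr1-/-, and 40.7 and 46.0 FPKM in Tnfr2-/-. Its difference of -0.55 ± 0.08 in Tnfr2-/- was under the fold threshold, and with median-ratio scaling it was 0.43 in Tnfr2-/- and 0.24 in Tnfr1-/-. The other core protein, Uqcrc1, and the Rieske iron-sulfur protein, Uqcrfs1, were 0.91 and 0.97 lower in Tnfr2-/- as deposited and 0.07 and 0.01 higher with median-ratio scaling. Uqcrb, Uqcrq, and Uqcr11, further small subunits, were 1.22, 1.40, and 1.07 lower as deposited and 0.23, 0.44, and 0.08 lower with median-ratio scaling. As deposited 7 of the 8 subunits fell in Tnfr2-/- and all 8 in Tnfr1-/-, where 57.1% and 60.7% of all listed genes fell. With median-ratio scaling 1 and 3 did, where 21% and 22.1% of all listed genes fell.

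Complex IV reduces oxygen, and several of its nuclear subunits exist as isoforms for different tissues. Of its 18 members, 13 fell in Tnfr2-/- and 17 in Tnfr1-/- as deposited, where 57.1% and 60.7% of all listed genes fell. With median-ratio scaling 2 and 4 did, where 21% and 22.1% of all listed genes fell. Cox4i1, the general form of subunit 4, had the highest mean level of all members. It was at 525 and 499 FPKM in WT, 139 and 116 FPKM in Tnfr1-/-, and 154 and 194 FPKM in Tnfr2-/-, and its difference was -1.56 ± 0.16 in Tnfr2-/-, and it was 2.00 ± 0.16 lower in Tnfr1-/- as deposited, with -0.57 and -0.86 with median-ratio scaling. Cox8a, the general form of subunit 8, differed less from WT and took the first place in the knockouts. It was at 345 and 326 FPKM in WT, 204 and 181 FPKM in Tnfr1-/-, and 216 and 253 FPKM in Tnfr2-/-. Among the members Cox8a was in places 3 and 4 in the WT samples and in place 1 in all 4 knockout samples, while Cox4i1 was in place 1 in WT and in places 3 and 4 in the knockouts. As deposited Cox8a was 0.52 lower in Tnfr2-/- and 0.80 lower in Tnfr1-/-, and with median-ratio scaling it was 0.47 and 0.34 higher. Cox5b, a zinc-binding subunit, behaved alike in these values, with -0.48 and -0.80 as deposited and 0.51 and 0.33 with median-ratio scaling.

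The minor isoforms of complex IV were higher in WT, also in relation to the general forms in the same sample. Cox6b2, a form of subunit 6B known from testis, stood at 15.7 and 17.2 FPKM in WT, 0.608 and 0.616 FPKM in Tnfr1-/-, and 1.64 and 0.746 FPKM in Tnfr2-/-, and the mean in WT was 13.8 times that in Tnfr2-/- and 26.9 times that in Tnfr1-/-. Its difference was -3.02 ± 0.21 in Tnfr2-/- (adjusted p = 0.000172 in limma) and -3.44 ± 0.21 in Tnfr1-/- (adjusted p = 0.000102), and -2.19 and -2.59 with median-ratio scaling. Of the summed FPKM of Cox6b1, the general form, and Cox6b2, the latter made up 4.70% and 5.50% in WT, 0.485% and 0.604% in Tnfr1-/-, and 1.14% and 0.421% in Tnfr2-/-. Such a share lies within 1 sample and does not depend on the scaling between samples. Cox7a1, the heart and muscle form of subunit 7A, was at 4.45 and 5.16 FPKM in WT, 0.796 and 0.223 FPKM in Tnfr1-/-, and 1.16 and 0.225 FPKM in Tnfr2-/-, and it made up 1.54% and 1.76% of the FPKM of Cox7a1, Cox7a2, and Cox7a2l in WT, against 0.706% and 0.228% in Tnfr1-/- and 1.00% and 0.166% in Tnfr2-/-. Cox4i2, the lung form of subunit 4, was at 0.815 and 0.816 FPKM in WT, at most 0.155 FPKM in Tnfr1-/-, and at 0.103 FPKM in the first and listed at 0 in the second Tnfr2-/- sample. The WT samples lay over all knockout samples in the shares of Cox6b2 and Cox7a1, while the knockouts overlapped with each other.

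Complex V had the largest median difference of the 5 complexes among these genes as deposited, -1.27 in Tnfr2-/- and -1.72 in Tnfr1-/-. All 11 members were called lower in both knockouts, where 57.1% and 60.7% of all listed genes were. Of the 11, Atp5g2 and Atp5j lost their call in Tnfr2-/- with a replicate block. Atp5b, the catalytic beta subunit of the F1 head, was at 464 and 495 FPKM in WT, 148 and 138 FPKM in Tnfr1-/-, and 155 and 211 FPKM in Tnfr2-/-, in place 2 among the members in every sample. Its difference was -1.40 ± 0.17 and -1.74 ± 0.17 as deposited and -0.41 and -0.60 with median-ratio scaling. Atp5a1, the alpha subunit, was 1.04 lower in Tnfr2-/- as deposited and 0.05 lower with median-ratio scaling, but 0.06 higher with quantile normalization. Atp5c1, Atp5d, and Atp5o, the gamma, delta, and oligomycin-sensitivity subunits, were 1.27, 1.18, and 1.22 lower as deposited and 0.29, 0.20, and 0.23 lower with median-ratio scaling. Atp5h, subunit d of the stalk, fell more than these. It stood at 172 and 160 FPKM in WT, 21.9 and 21.3 FPKM in Tnfr1-/-, and 25.8 and 30.3 FPKM in Tnfr2-/-, and fell by 2.53 ± 0.10 and 2.88 ± 0.10 on the log2 scale as deposited and by 1.55 and 1.76 with median-ratio scaling. Of its windows 23.8% also occur in another gene. Atp5j, coupling factor 6 of the stalk, was 0.63 lower in Tnfr2-/- and 1.00 lower in Tnfr1-/- as deposited and 0.35 and 0.12 higher with median-ratio scaling. Its call in Tnfr2-/- was also lost without either WT or either Tnfr2-/- sample, with differences from -0.75 to -0.51. It shares 20.2% of its windows with Gabpa, which starts beside it on the opposite strand.

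The 3 genes of the c ring differed from one another. Atp5g1, Atp5g2, and Atp5g3 encode the same mature subunit c, which forms the rotor through which protons pass, behind different import peptides. Atp5g3 was at 338 FPKM in both WT samples, 63.7 and 53.6 FPKM in Tnfr1-/-, and 66.9 and 95.1 FPKM in Tnfr2-/-, and fell by 2.07 ± 0.19 and 2.51 ± 0.19 on the log2 scale as deposited and by 1.08 and 1.38 with median-ratio scaling. Atp5g1 was at 87.5 and 75.5 FPKM in WT, 9.45 and 7.77 FPKM in Tnfr1-/-, and 7.21 and 17.6 FPKM in Tnfr2-/-, and fell by 2.74 ± 0.40 and 3.10 ± 0.40 as deposited and by 1.77 and 2.01 with median-ratio scaling. Atp5g2 fell least. It was at 165 and 157 FPKM in WT, 74.4 and 61.2 FPKM in Tnfr1-/-, and 68.4 and 119 FPKM in Tnfr2-/-, with a difference in Tnfr2-/- of -0.82 ± 0.28 as deposited (adjusted p = 0.0347 in limma, not called when a WT sample, a Tnfr1-/- sample, or the first Tnfr2-/- sample was left out) and of 0.16 with median-ratio scaling. In Tnfr1-/- its difference was -1.24 ± 0.28 as deposited (not called when the first WT sample was left out) and -0.11 with median-ratio scaling.

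Within each sample, Atp5g2 made up 28.0% and 27.5% of the summed FPKM of the 3 genes in WT, 50.4% and 49.9% in Tnfr1-/-, and 48.0% and 51.5% in Tnfr2-/-. Atp5g3 made up 57.2% and 59.3% in WT, 43.2% and 43.7% in Tnfr1-/-, and 46.9% and 41.0% in Tnfr2-/-, and Atp5g1 14.8% and 13.2%, 6.41% and 6.34%, and 5.06% and 7.57%. The most abundant c ring gene was thus Atp5g3 in WT and Atp5g2 in all 4 knockout samples. The mean share of Atp5g2 was 27.7% ± 0.351 (SD, n = 2) in WT, 50.2% ± 0.335 in Tnfr1-/-, and 49.7% ± 2.44 in Tnfr2-/-. The gap to WT was far over the spread within a genotype, while the knockouts overlapped. The filter favors genes with a small spread within a genotype and a gap between genotypes, so this is no independent support. Of the 50-base windows of Atp5g1 11.6%, of those of Atp5g2 14.8%, and of those of Atp5g3 none also occur in another annotated gene.

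**Figure D4:**
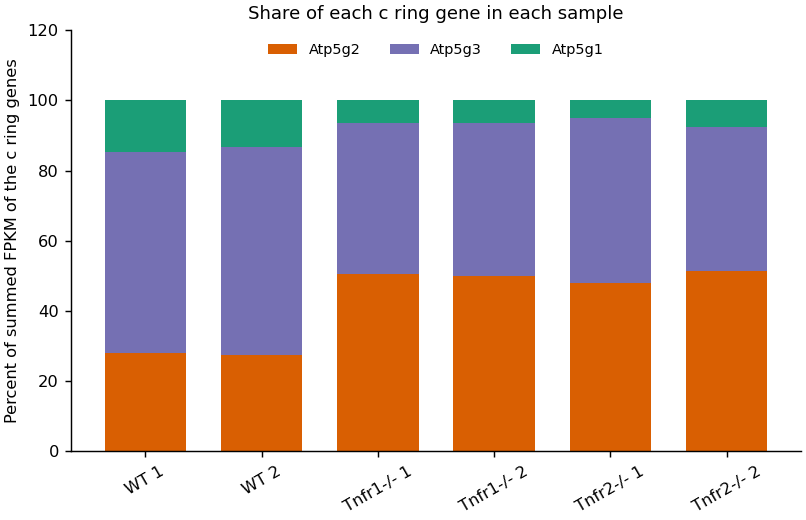
Share of Atp5g2, Atp5g3, and Atp5g1 in the summed FPKM of the 3 c ring genes, in percent on the y axis, for each of the 6 samples on the x axis. Atp5g2 holds 27.5% to 28.0% of the bar in WT and 48.0% to 51.5% in the knockouts.

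The promoters of these genes are shown because the c ring genes encode 1 protein and moved unequally, because Uqcr10 and Atp5h fell further than most members of their complexes, and because Cox6a1 holds matches to 2 of the motifs searched. Atp5j and Cox10, which are not shown, also hold matches to 2 of them. The sequences run from 250 bases before to 50 bases after the start site on the strand of the gene, 5′ to 3′, and were taken from RefSeq on GRCm38.p6. They lie at chr11:96075582-96075881 (Atp5g1), chr15:102670998-102671297 (Atp5g2), chr2:73911277-73911576 (Atp5g3), chr11:4704295-4704594 (Uqcr10), chr11:115419870-115420169 (Atp5h), and chr5:115348909-115349208 (Cox6a1), all on the minus strand. Capitals mark matches, on either strand, to the NRF1 core (GCGCA followed at once by its reverse complement TGCGC), the ETS core CCGGAAG, or the YY1 core AAGATGGCG, 3 motifs of factors known to act at respiratory chain promoters.
Atp5g1: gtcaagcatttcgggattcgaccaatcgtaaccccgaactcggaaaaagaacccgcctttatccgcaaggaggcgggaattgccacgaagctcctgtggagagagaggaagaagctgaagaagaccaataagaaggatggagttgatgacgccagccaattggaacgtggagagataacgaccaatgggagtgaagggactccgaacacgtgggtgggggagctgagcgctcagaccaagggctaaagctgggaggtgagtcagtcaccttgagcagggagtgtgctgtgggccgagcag
Atp5g2: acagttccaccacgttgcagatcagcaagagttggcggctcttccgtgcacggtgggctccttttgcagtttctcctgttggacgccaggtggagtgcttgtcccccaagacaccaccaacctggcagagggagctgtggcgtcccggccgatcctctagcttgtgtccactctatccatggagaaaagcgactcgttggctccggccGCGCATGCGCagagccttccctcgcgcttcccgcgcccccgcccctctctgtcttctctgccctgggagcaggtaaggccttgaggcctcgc
Atp5g3: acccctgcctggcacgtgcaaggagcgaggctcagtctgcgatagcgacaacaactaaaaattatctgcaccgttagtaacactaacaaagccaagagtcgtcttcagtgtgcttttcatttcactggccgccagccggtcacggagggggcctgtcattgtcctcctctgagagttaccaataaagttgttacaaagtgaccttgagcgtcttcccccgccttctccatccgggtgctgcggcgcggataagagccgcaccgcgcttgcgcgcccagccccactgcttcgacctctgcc
Uqcr10: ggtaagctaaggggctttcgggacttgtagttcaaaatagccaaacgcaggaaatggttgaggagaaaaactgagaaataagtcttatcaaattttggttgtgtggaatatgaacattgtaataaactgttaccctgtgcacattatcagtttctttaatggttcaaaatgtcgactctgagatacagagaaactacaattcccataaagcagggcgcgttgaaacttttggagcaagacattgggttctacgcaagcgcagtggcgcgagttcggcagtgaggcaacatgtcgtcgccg
Atp5h: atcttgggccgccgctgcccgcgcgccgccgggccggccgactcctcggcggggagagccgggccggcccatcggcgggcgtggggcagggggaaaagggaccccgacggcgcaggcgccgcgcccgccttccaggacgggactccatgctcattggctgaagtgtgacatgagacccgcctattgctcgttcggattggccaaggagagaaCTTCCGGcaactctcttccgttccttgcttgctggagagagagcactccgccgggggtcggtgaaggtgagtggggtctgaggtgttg
Cox6a1: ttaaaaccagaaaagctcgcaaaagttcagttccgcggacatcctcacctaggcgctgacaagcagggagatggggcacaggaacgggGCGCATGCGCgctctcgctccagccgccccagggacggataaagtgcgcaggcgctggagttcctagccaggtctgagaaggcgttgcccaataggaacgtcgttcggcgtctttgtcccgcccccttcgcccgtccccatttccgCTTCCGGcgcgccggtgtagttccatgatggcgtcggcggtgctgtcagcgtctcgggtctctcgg

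Of the c ring genes, only Atp5g2 held a match in this window, to the NRF1 core. Atp5h held 1 ETS core, read on the opposite strand as CTTCCGG, Cox6a1 held an NRF1 core and an ETS core, and Uqcr10 held no match. A promoter was given for 68 of the 81 members. The NRF1 core was found for 6 of them (8.82%), namely Atp5g2, Cox6a1, Ndufa11, Ndufaf4, Ndufaf5, and Uqcrc1, and for 2.41% of the listed genes and 1.07% of all genes with a promoter. The ETS core was found for 18 members (26.5%), 19.8% of the listed genes, and 9.93% of all genes, and the YY1 core for 8 members (11.8%), 3.61%, and 1.64%. Members with and without a match had similar differences as deposited. In Tnfr2-/- against WT the median was -1.01 with and -1.17 without an NRF1 core and -1.02 and -1.18 for the YY1 core, and for the ETS core the members were lower by 1.00 with and by 1.22 without it. A match is a run of letters, and binding was not measured.

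Between the knockouts, the members were higher in Tnfr2-/- than in Tnfr1-/- in nearly every case, but no single gene passed the test. In Tnfr2-/- against Tnfr1-/-, limma called 0 members higher, where 0.842% of all listed genes were, and 0 lower, where 0.61% were, and it also called 0 members with median-ratio scaling (1.09% of all listed genes higher and 1.45% lower) and with quantile normalization (1.48% and 1.43%). An unadjusted p under 0.05 was found for 32 members and for 1962 of all listed genes. The difference was above 0 for 79 of 81 members and its median was 0.37, against 0.06 for all listed genes. With median-ratio scaling it was above 0 for 75 members, with a median of 0.24 against -0.02 for all listed genes. The samples of the knockouts did not overlap, with Tnfr2-/- the higher, for 57 members, while this held for 34.9% of all listed genes. No member had Tnfr2-/- lower without overlap, while 16.1% of all listed genes did. With median-ratio scaling the first of these counts was 47 members, where it was 20.5% of all listed genes, and the second was 1, where it was 25.7%.

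The median difference between the knockouts was above 0 in each complex as deposited, with no member called. It was 0.34 in complex I, 0.43 in complex II, 0.46 in complex III, 0.32 in complex IV, and 0.38 in complex V. These medians run over genes of the same samples, which are not replicates of a genotype. Within a knockout, the first minus the second sample had a median over members of -0.33 in Tnfr2-/- and of 0.17 in Tnfr1-/-. The 3 members with the lowest unadjusted p were Ndufb4, Ndufaf3, and Uqcrc2. Ndufb4, an accessory subunit of complex I, was at 17.5 and 15.4 FPKM in Tnfr1-/- and 23.7 and 25.1 FPKM in Tnfr2-/-. Its difference of 0.54 ± 0.09 was under the fold threshold and not called (adjusted p = 0.0517 in limma). The errors here also draw on WT, whose samples spread less over the members (SD 0.0744 on the log2 scale) than those of Tnfr1-/- (0.213) and Tnfr2-/- (0.280). The adjusted p was 0.0698 for Ndufaf3, with a difference of 0.40 ± 0.08, and 0.096 for Uqcrc2, with 0.33 ± 0.08. Ndufa4 differed most in size, by 0.75 ± 0.19 with an adjusted p of 0.102, and its mean was 1.70 times as high in Tnfr2-/-. Sdha, the subunit of complex II that also serves the citric acid cycle, was nearly level between the knockouts, at 0.03 ± 0.07 as deposited and -0.12 with median-ratio scaling. Ndufaf4 and Cox4i2 were the 2 members with a lower mean in Tnfr2-/-, by -0.15 and -0.07.

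**Figure D5:**
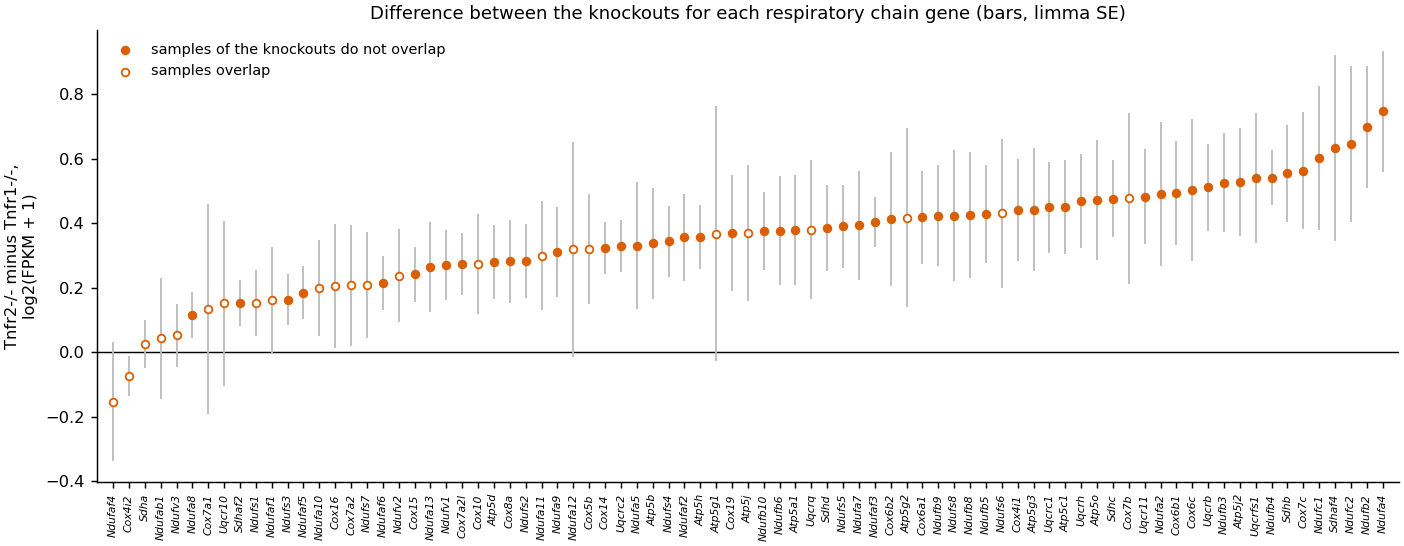
Difference of each of the 81 respiratory chain genes between Tnfr2-/- and Tnfr1-/- on the log2(FPKM + 1) scale, on the y axis, with genes in order of the difference on the x axis and bars for limma's standard error. Filled points are the 57 genes whose samples do not overlap between the knockouts. The differences run from -0.15 (Ndufaf4) to 0.75 (Ndufa4).

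The samples of a knockout differed from each other for these genes more than those of WT did. The second Tnfr2-/- sample was over the first for 72 of the 81 members, and the first minus the second had a median of -0.33 on the log2 scale over members and of -0.04 over all listed genes. The first Tnfr1-/- sample was over the second for 67 members, by a median of 0.17. In WT the first sample was over the second for 45 members and under it for 36. The second Tnfr2-/- sample thus held the highest and the second Tnfr1-/- sample the lowest levels among the knockouts for most members. Without the first Tnfr2-/- sample the median difference of the members between the knockouts was 0.50, and without the second it was 0.22. Without the first or second Tnfr1-/- sample it was 0.45 or 0.26. Since 57 of the 81 members had both Tnfr2-/- samples over both Tnfr1-/- samples, the median had to keep its sign in each of these fits.

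Genes of the same pathway outside the symbol rule were also lower for the most part as deposited, where 57.1% of all listed genes fell in Tnfr2-/- and 60.7% in Tnfr1-/-. Of 29 further assembly factors, 22 were listed. As deposited 20 of them fell and 1 rose in each knockout, where 13.6% and 14.1% of all listed genes rose. The median of the 22 was lower by 1.00 in Tnfr2-/- and by 1.15 in Tnfr1-/-. With median-ratio scaling 1 fell in Tnfr2-/- and 4 in Tnfr1-/-, where 21% and 22.1% of all listed genes did. Uqcc2, an assembly factor of complex III, was the one that fell in both under that scaling. It was at 28.1 and 22.8 FPKM in WT, 1.85 and 1.86 FPKM in Tnfr1-/-, and 1.35 and 3.66 FPKM in Tnfr2-/-, with differences of -2.99 ± 0.34 and -3.21 ± 0.34 as deposited and -2.12 and -2.23 with median-ratio scaling. The one called higher, Sco2, which delivers copper to complex IV in respiring cells, was listed at 0 in both WT samples, and whether that 0 is a low level or a missing estimate was not tested. It was at 3.52 and 3.15 FPKM in Tnfr1-/- and 2.66 and 3.70 FPKM in Tnfr2-/-. Atpif1, the inhibitor of the ATP synthase, was at 80.3 and 65.9 FPKM in WT, 11.7 and 8.43 FPKM in Tnfr1-/-, and 11.0 and 13.1 FPKM in Tnfr2-/-, and fell by 2.51 and 2.75 on the log2 scale as deposited and by 1.54 and 1.66 with median-ratio scaling.

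Of 20 genes of the mobile electron carriers and of the enzymes that feed them, 15 were listed. As deposited 11 fell and 2 rose in Tnfr2-/-, 12 fell and 1 rose in Tnfr1-/-, and the medians were -0.97 and -1.01, while with median-ratio scaling 3 fell and 2 rose in Tnfr2-/- and 4 fell and 2 rose in Tnfr1-/-. Of all listed genes, 57.1% fell and 13.6% rose in Tnfr2-/- as deposited, and 21% and 21.8% did with median-ratio scaling. In Tnfr1-/- 60.7% of all listed genes fell and 14.1% rose as deposited, and 22.1% and 23.3% did with median-ratio scaling. Cycs, cytochrome c, was at 23.2 and 23.3 FPKM in WT, 5.07 and 5.38 FPKM in Tnfr1-/-, and 5.96 and 9.54 FPKM in Tnfr2-/-. Coq2, which joins the ring and the side chain of ubiquinone, rose in both knockouts under either scaling, from 5.44 and 5.63 FPKM in WT to 12.8 and 13.2 FPKM in Tnfr1-/- and 11.0 and 15.0 FPKM in Tnfr2-/-. Coq7, a later enzyme of the same path, fell by 1.99 and 2.23 as deposited and by 1.17 and 1.34 with median-ratio scaling. Etfa and Etfb, the 2 subunits of the electron transfer flavoprotein, parted, with Etfb lower by 2.25 in Tnfr2-/- and Etfa higher by 0.64 as deposited. None of the 13 subunits encoded by the mitochondrial genome was listed.

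The members share features the symbol rule did not use. Their longest annotated transcript had a median length of 1200 bases, against 3277 bases for the listed genes. Over the listed genes, shorter transcripts had the lower difference from WT, with a Spearman correlation between length and difference of 0.28 in Tnfr2-/- and 0.29 in Tnfr1-/- across 8166 genes, which share the same 4 libraries in each comparison. Across the 81 members it was -0.08 and 0.02. The order of the members by level was kept more closely between the knockouts than between a knockout and WT. Across the 81 members, the Spearman correlation of levels was 0.996 between the WT samples, from 0.981 to 0.993 between knockout samples, and from 0.920 to 0.935 between a WT and a knockout sample. Windows shared with another gene made up over 20% of the transcript for 14 members, and without them the median differences were -1.12 in Tnfr2-/-, -1.49 in Tnfr1-/-, and 0.38 between the knockouts, over 67 members.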

How the data were processed

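RNA of MDSCs was sequenced by the authors as single-end reads of 50 bases, checked with FastQC, and deposited as FPKM per gene and sample. The build is mm10 per the labels, edgeR is named for the authors' own comparison, and the aligner and the tool that made the FPKM are not given in the sources used here. The deposited p-value column of the authors' comparison over genotypes was not used, and the filter on the table was checked by recomputing that analysis of variance from FPKM. The 6 columns were mapped to samples by name.

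FPKM were used as deposited, 1 was added, and differences of log2 values were tested by limma 3.58.1 (R 4.3.3; linear model, contrasts, moderated variance with a trend) in 1 model of 6 samples and 3 genotypes, without a block, two-sided, with adjustment over 8191 genes. The test was checked on simulated data that were not filtered by an analysis of variance, so that check does not cover the effect of the filter. Replicate numbers were not used to pair the samples in this model. Positions, overlaps, and lengths are from GENCODE M21 on GRCm38, and promoters from RefSeq on GRCm38.p6. A window was counted as shared when its 50 bases occur in a transcript of another gene. Depth was not used here, and no count precision is given.

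The members and gene lists were chosen with earlier results of these data known. Named are the core subunits, complex II and III subunits, complex IV isoforms, F1 and c ring genes, the most abundant subunit and the largest rise and fall of each complex, members opposite in sign, and the 3 lowest p-values between the knockouts. Other genes were named after their values were seen. Summaries and plots were made in Python 3.11.15 with NumPy 2.4.6, SciPy 1.17.1, pandas 2.3.3, and matplotlib 3.10.9.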

Additional observations from a re-analysis of the deposited data

How the results depend on the processing

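As deposited, 71 members fell in Tnfr2-/- and 79 in Tnfr1-/- against WT. Median-ratio scaling gave 13 and 30 lower, 2 and 2 higher, and medians of -0.20 and -0.41, and quantile normalization gave 19 and 33 lower, 3 and 1 higher, and medians of -0.30 and -0.46. The filter at a mean of 5 FPKM left 0 higher in both, since Cox16 was not tested. A pseudocount of 0.1 moved the median in Tnfr1-/- to -1.58. With a fold threshold of 2, 52 and 68 fell, and the share of all listed genes at that threshold is not given. Leaving out 1 sample at a time gave 60 to 73 lower in Tnfr2-/- and 76 to 79 in Tnfr1-/-, a median of -1.63 to -1.44 in Tnfr1-/-, and between the knockouts 0 to 19 higher, 19 only without the first Tnfr2-/- sample. Median-ratio scaling with 1 sample left out, added after seeing the data, gave 12 and 10 lower in Tnfr2-/- without a WT, 12 and 12 without a Tnfr1-/-, and 13 and 16 without a Tnfr2-/- sample, and in the same order 21, 22, 30, 23, 30, and 29 lower in Tnfr1-/-. In fits that leave a genotype with 1 sample, that sample is assumed to vary like the other groups. The shares of all listed genes called in these fits are not given, so their counts are not results about the members. With the replicate number as a block, 68 and 79 fell, 1 rose in each, and 0 differed between the knockouts. The deviations of same-numbered samples correlated at 0.02 to 0.05. As the listed genes were filtered on their spread within a genotype, this cannot decide whether equal numbers mark the same experiment. Without the 5 most abundant members, the share of the listed FPKM was 1.82% and 1.76% in WT, 1.62% and 1.40% in Tnfr1-/-, and 1.60% and 1.97% in Tnfr2-/-.

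Differences of named genes that changed sign in Tnfr2-/- against WT were, with median-ratio scaling, Atp5g2 at 0.16, Atp5j at 0.35, Cox5b at 0.51, Cox6b1 at 0.045, Cox8a at 0.47, Ndufa4 at 0.34, Ndufs8 at 0.012, Sdhaf4 at 0.12, Uqcrc1 at 0.073, Uqcrc2 at 0.43, Uqcrfs1 at 0.0070, and Uqcrh at 0.18. With quantile normalization they were Atp5a1 at 0.061, Atp5g2 at 0.11, Atp5j at 0.24, Cox5b at 0.49, Cox6a1 at 0.0066, Cox6b1 at 0.13, Cox8a at 0.64, Ndufa4 at 0.31, Uqcrc2 at 0.32, and Uqcrh at 0.12. In Tnfr1-/- against WT the values were, for median-ratio scaling and quantile normalization, 0.12 and 0.029 for Atp5j, 0.33 and 0.38 for Cox5b, 0.34 and 0.51 for Cox8a, 0.65 and 0.46 for Ndufaf3, and 0.24 and 0.15 for Uqcrc2. Both scalings take out the shift of all listed genes by construction. Whether that shift is technical or real was not tested.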

Other observations

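Enzymes that supply the respiratory chain were also lower in the knockouts as deposited. Of 18 genes of pyruvate dehydrogenase and the citric acid cycle, 17 were listed, and 16 fell in Tnfr2-/- and 17 in Tnfr1-/-, with medians of -1.05 and -1.28, where 57.1% and 60.7% of all listed genes fell. With median-ratio scaling 4 and 5 fell, where 21% and 22.1% of all listed genes did. Idh3a, the catalytic subunit of NAD-dependent isocitrate dehydrogenase, was at 39.8 and 38.4 FPKM in WT, 7.70 and 8.54 FPKM in Tnfr1-/-, and 6.51 and 11.3 FPKM in Tnfr2-/-, and fell by 2.06 and 2.14 on the log2 scale as deposited and by 1.12 and 1.06 with median-ratio scaling. Of 9 carriers and channels of the mitochondrial membranes, all were listed and fell in both knockouts as deposited, and 3 and 4 did with median-ratio scaling. Mpc1, a subunit of the pyruvate carrier, fell by 2.74 and 2.99 as deposited and by 1.82 and 1.96 with median-ratio scaling, while its partner Mpc2 was 1.07 and 1.30 lower as deposited and 0.09 and 0.19 lower with median-ratio scaling.

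Of 15 regulators of respiratory chain transcription, 11 were listed, and their counts changed with the scaling. As deposited 3 rose and 5 fell in Tnfr2-/-, where 13.6% of all listed genes rose and 57.1% fell, and 4 rose and 5 fell in Tnfr1-/-, where 14.1% rose and 60.7% fell. With median-ratio scaling 6 rose and 1 fell in Tnfr2-/-, with a median of 0.96, and 6 rose and 0 fell in Tnfr1-/-, with a median of 1.02, where 21.8% and 23.3% of all listed genes rose and 21% and 22.1% fell. Quantile normalization with limma gave 6 higher and 0 lower in each knockout. With it 20.6% and 21.2% of all listed genes were higher and 22.6% and 25.1% lower in Tnfr2-/- and Tnfr1-/-. Sp1, Yy1, and Gabpb2, transcription factors or their partners that act at many promoters, rose in both knockouts under either scaling. Sp1 was at 10.4 and 10.5 FPKM in WT, 26.3 and 27.0 FPKM in Tnfr1-/-, and 25.2 and 24.6 FPKM in Tnfr2-/-. Nrf1, the factor named for nuclear control of respiration, was at 1.53 and 1.79 FPKM in WT, 3.11 and 3.09 FPKM in Tnfr1-/-, and 3.02 and 2.90 FPKM in Tnfr2-/-, a difference of 0.57 in Tnfr2-/- that was under the fold threshold and of 0.62 in Tnfr1-/- that was called. Esrra and its coactivator Ppargc1b, known to raise respiratory chain genes, fell as deposited by 1.20 and 1.21 in Tnfr2-/- and by 1.28 and 1.09 in Tnfr1-/-. With median-ratio scaling Esrra was 0.26 and 0.20 lower and not called, and Ppargc1b was 0.60 lower and called in Tnfr2-/- and 0.38 lower and not called in Tnfr1-/-.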
